A study of Panax ginseng with 12 samples.

Results

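The comparison set cold-treated ginseng calli at day 6 against cold-treated calli at day 4, the last 2 of the sampled days. Embryogenic calli are clumps of undifferentiated plant tissue grown in culture that can form somatic embryos, here from Panax ginseng, a medicinal plant of cool forests. The members were the 4 libraries of calli kept at 5 °C for 6 days (replicates 2 and 3) or 4 days (replicates 1 and 2), of 12 libraries in the whole series. The same days at 20 °C gave 4 control libraries, from day 6 (replicates 2 and 3) and day 4 (replicates 1 and 2). A further 2 cold and 2 control libraries came from day 2. No genotype, strain or other agent was named for any group. Nothing in the labels says that libraries of 1 group came from separate cultures, so p-values measure the spread between these samples, which may be technical. Expression was deposited as TPM (a gene's transcripts as a length-adjusted share of its library) for 44953 assembled genes. Of these, 44600 reached 1 TPM in at least 2 of the 12 libraries and were tested.

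Plants that meet cold first show a rise of free calcium in the cytosol, which calmodulins, calmodulin-like proteins and calcium-dependent kinases read and which calcium-pumping ATPases end. Transcription factors of the DREB, ZAT, WRKY, NAC and heat stress families respond early, and later products include dehydrins, raffinose sugars and desaturases that keep membranes fluid. In Arabidopsis and other plants many of the early genes return toward their starting level while the cold lasts, as the tissue acclimates, and growth genes for cell walls and cell division resume. The roles given below come from Arabidopsis and other plants through the closest Swiss-Prot protein of each assembled gene, and no role was tested here. Assembled genes that share a Swiss-Prot protein may be gene copies or fragments of 1 gene, and the sources used here do not give how reads were divided among them.

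The calli carried some known regulators of embryogenic tissue in both cold groups. WOX8, a homeobox gene of the early embryo, had 222 and 305 TPM in cold day 6 calli, against 247 and 195 TPM in cold day 4 calli. SERK1, a receptor kinase named for somatic embryogenesis, had 83.7 and 88.5 TPM at cold day 6, against 90.1 and 95.2 TPM at cold day 4. The same gene is also annotated as like BRASSINOSTEROID INSENSITIVE 1-associated receptor kinase 1, so its tie to embryogenic tissue is uncertain. The 12 tested genes of the embryogenic list summed to 464.9 to 517.9 TPM at cold day 6 and 447.2 to 514.5 TPM at cold day 4. They were SERK, WOX, LEC2-like and AGL15 genes, and none was annotated as the embryo regulators BBM, LEC1 or FUS3. Not all members held their level. A WOX2 gene (TRINITY_DN28376_c0_g6) had 1.94 and 3.96 TPM at cold day 6, against 10.33 and 7.1 TPM at cold day 4. A LEC2-like gene had 2.89 and 0.45 TPM at cold day 6, against 4.92 and 4.56 TPM at cold day 4. WOX4 was higher at cold day 6, with 0.55 and 2.62 TPM, against 0.19 and 0 TPM at cold day 4. Genes typical of other tissues were also present. The 40 photosystem and chlorophyll-binding genes summed to 210.6 to 225.1 TPM at cold day 6 and 242.5 to 261.2 TPM at cold day 4. A word pattern for seed storage and oil bodies matched 15 genes, not all of them of that kind. It also matched poplar gene names in the annotation of other proteins, among them L-Ala-D/L-amino acid epimerases and the kinase YODA. The 15 genes summed to 220.4 to 345.2 TPM at cold day 6 and 218.2 to 246.4 TPM at cold day 4. CRD, a 12S seed storage protein, had 55.69 and 47.99 TPM at cold day 6, against 41.55 and 41.94 TPM at cold day 4. The 19 epidermis and cuticle genes summed to 321.6 to 333.6 TPM at cold day 6 and 296.1 to 371 TPM at cold day 4, with 2 of them listed at 0 in all 4 libraries. In bulk calli, fewer cells of a type and less RNA per cell cannot be told apart.

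The cold day 6 libraries differed from each other in 1 direction that touches every result below. Replicate 3 correlated with the 6 control libraries at r = 0.806 to 0.861 across genes and with the cold day 4 libraries at r = 0.828 to 0.855. Replicate 2 correlated with the same controls at r = 0.75 to 0.805 and with the cold day 4 libraries at r = 0.888 to 0.903. The 2 cold day 6 libraries correlated with each other at r = 0.899, and the cold day 4 pair at r = 0.925. These correlations are across genes, which are not independent replicates. Counts for most lists below are therefore also given for each cold day 6 library alone. The control pairs were less alike, at r = 0.81 for day 2, 0.88 for day 4 and 0.848 for day 6. Control day 2 replicate 1 correlated at 0.896 with control day 4 replicate 1 and 0.892 with control day 6 replicate 3. Control day 2 replicate 3 correlated at 0.886 with control day 4 replicate 2 and 0.895 with control day 6 replicate 2. The controls enter every cold minus control difference and the spread used by limma. The deposited sums per library were 900400 to 929555 TPM on days 6 and 4, and the number of reads behind them is not known, so no counting interval could be given.

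Across all genes the move from day 4 to day 6 in the cold was broad but weakly resolved by 2 libraries a group. Of 44600 tested genes, 15 (0.0336%) passed limma at a Benjamini-Hochberg (BH) false discovery rate of 0.05 for cold day 6 against cold day 4. The 15 comprised 5 that rose (0.0112%) and 10 that fell (0.0224%). Under median ratio scaling between libraries 8 genes passed, of which 4 rose and 4 fell. Without cold day 6 replicate 2 the limma count was 135, and without cold day 6 replicate 3 it was 0. It was also 0 without either cold day 4 library, 1 without either control day 4 library and 2 without either control day 6 library. Leaving out either control day 2 library gave 7 calls, and leaving out either cold day 2 library gave 0. In controls 0 genes (0%) passed limma for day 6 against day 4, where 2121 had an unadjusted p under 0.05, compared with 5235 genes in the cold. Of those 5235, 2420 (5.43% of tested genes) were higher at cold day 6 and 2815 (6.31%) lower. The difference between the cold change and the control change was called for 0 genes by limma, with 3626 genes at an unadjusted p under 0.05 and a lowest BH-adjusted p of 0.106. All differences below are of log2(TPM + 1) values, and the added 1 makes changes of weakly expressed genes look smaller than they were.

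A second, descriptive count needed no spread estimate and was chosen after the small number of calls was known. It took genes for which both libraries of day 6 lay above, or both below, both libraries of day 4, with a mean difference of at least 1 on the log2 scale. Such genes are called separated 2-fold here. In the cold 6293 genes (14.1%) were separated 2-fold, 2663 higher at day 6 (5.97%) and 3630 lower at day 6 (8.14%). In the controls 3437 genes (7.71%) were, 1337 higher at day 6 (3%) and 2100 lower at day 6 (4.71%). Such a count falls when the libraries of a group are less alike, and the control pairs were less alike than the cold pairs. What part this had in the smaller control counts, here and for the lists below, was not tested. Set alone against both cold day 4 libraries, cold day 6 replicate 2 had 2906 genes higher and 3726 lower by this measure. Cold day 6 replicate 3 had 5103 higher and 5477 lower. These counts, out of 44600 tested genes, are the background for the single-library counts of the lists below.

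Genes that differed between cold and control calli at day 2 were closer to controls at cold day 6 than at cold day 4. These genes were picked on the 4 day 2 libraries alone, which share nothing with the 8 libraries of days 4 and 6. In 1913 genes both cold day 2 libraries exceeded both control day 2 libraries by a mean of at least 2 on the log2 scale. Their median change from day 4 to day 6 was -0.62 in the cold and -0.00070 in controls, beside 0 and -0.097 over all tested genes. Of the 1913, 75.6% had a negative change in the cold. At cold day 6, 618 of them (32.3%) were separated 2-fold lower, against the 8.14% of all genes, and 58 (3.03%) were separated 2-fold higher. Their median excess over controls on the log2 scale was 2.43 at day 2, 1.04 at day 4 and 0.46 at day 6. They were chosen for their day 2 excess, so the day 2 value and part of the smaller values on later days follow from that choice.

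The smaller group that had been lower in the cold at day 2 differed in the other direction. It held 335 genes, with a median change from day 4 to day 6 of 0.43 in the cold and -0.067 in controls. At cold day 6, 76 of them (22.7%) were separated 2-fold higher, against 5.97% of all genes, and 10 (2.99%) were separated 2-fold lower. Their median difference from controls on the log2 scale was -2.25 at day 2, -1.66 at day 4 and -1.01 at day 6. The size depended on the library. Cold day 6 replicate 3 alone gave medians of -0.85 for the day 2 higher genes and 0.73 for the day 2 lower genes, and replicate 2 alone gave -0.48 and 0.12. The choice of genes also rested on single day 2 libraries. Without control day 2 replicate 1 the lower group held 1412 genes with a cold median of 0.070, and without cold day 2 replicate 1 it held 564 with 0.22. Without control day 2 replicate 3 it held 912 with 0.27, and without cold day 2 replicate 3 it held 847 with 0.42. The higher group held 2063 to 3431 genes in these 4 cases, with cold medians of -0.62 to -0.44.

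**Figure D1:**
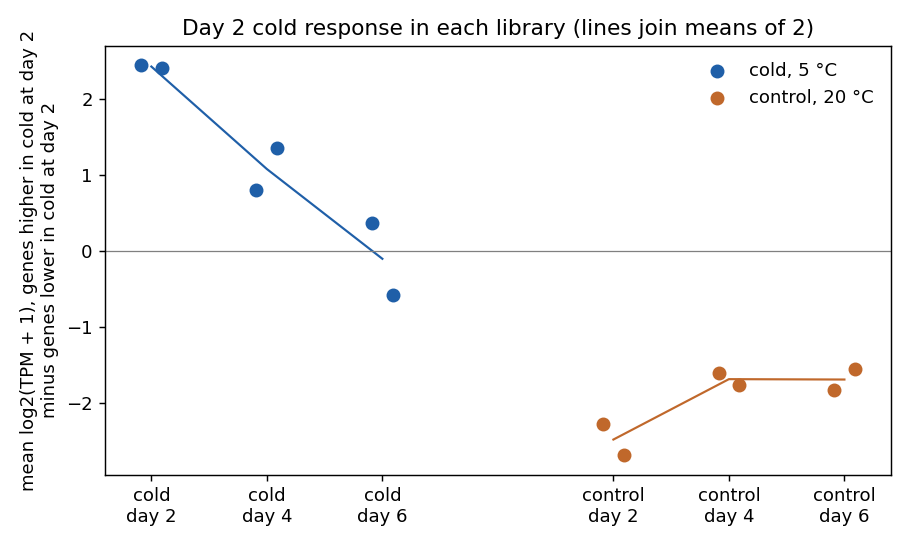
Mean log2(TPM + 1) of the 1913 genes higher in cold at day 2 minus that of the 335 genes lower in cold at day 2 (y axis), for each library by temperature and day (x axis); points are libraries and lines join the means of 2. Cold libraries stand at 2.44 and 2.41 on day 2, 0.80 and 1.35 on day 4, and 0.37 and -0.58 on day 6, while every control library lies between -2.69 and -1.56. The day 2 values follow from how the genes were chosen.

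The difference between these gene groups, taken within each library, puts the day 6 cold calli between day 4 cold calli and controls. It was 0.37 and -0.58 on the log2 scale in cold day 6 calli, against 0.80 and 1.35 in cold day 4 calli. In controls it was -1.83 and -1.56 at day 6, against -1.61 and -1.77 at day 4. The cold groups of days 6 and 4 did not overlap, the control groups of the same days did, and neither cold day 6 library reached the range of the controls.

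**Figure D2:**
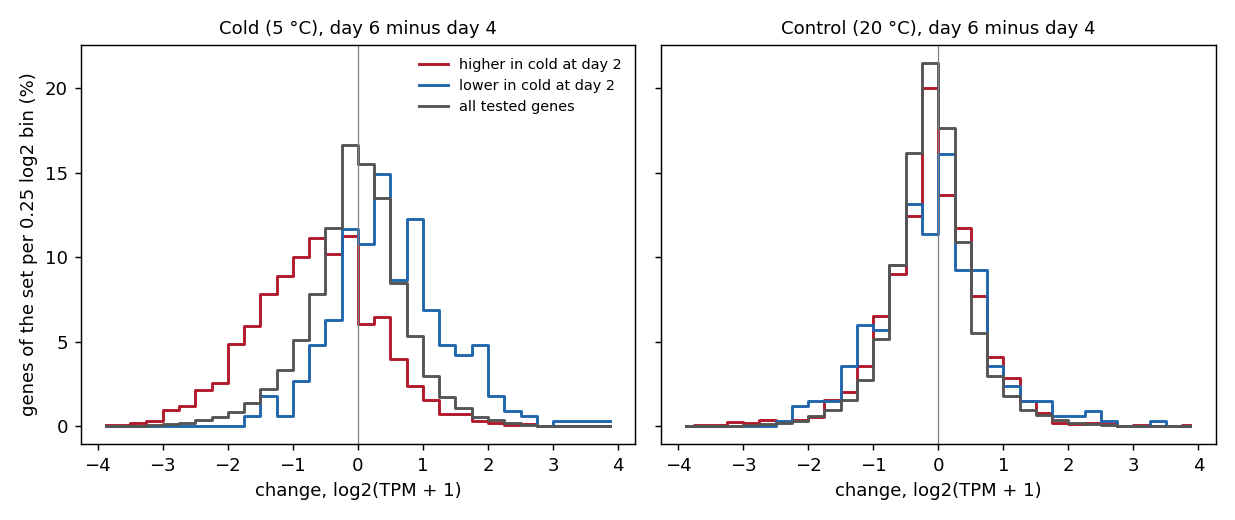
Share of genes (y axis, % of each set per 0.25 log2 bin) by their day 6 minus day 4 change in log2(TPM + 1) (x axis), in the cold (left) and in controls (right). In the cold the genes higher at day 2 lie mostly below 0 (75.6%) and those lower at day 2 mostly above 0 (71.6%), whereas in controls both sets centre near 0.

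Most separated genes moved in the direction of the controls. A gene was counted as returning when its change in the cold was opposite in sign to its cold minus control difference at day 4 and that difference was smaller at day 6. It was counted as going further when the signs matched and the difference was larger at day 6. Of the 15 genes called by limma, 12 returned, 4 of them rising and 8 falling, 0 went further and 3 did neither. Of the 6293 genes separated 2-fold in the cold, 3772 (59.9%) returned, 465 (7.39%) went further, 697 (11.1%) did neither and 1359 (21.6%) had differed from controls by less than 2-fold on both days. The cold day 4 libraries enter both of the differences compared, which by itself leans this count toward return.

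Counting calls against controls on each day avoids that shared library. By limma, 3736 genes (8.38%) differed between cold and control at day 4 and 216 (0.484%) at day 6. At an unadjusted p under 0.05 the limma counts were closer, with 12331 genes (27.6%) at day 4 and 7824 (17.5%) at day 6. The drop in calls therefore overstates how far the difference from controls shrank. At day 4, 1816 (4.07%) were higher in the cold, of which 85 were also called higher at day 6. Those 85 were 4.68% of the day 4 list and 59.9% of the 142 genes (0.318%) called higher at day 6. The median excess of the 1816 genes was 2.08 at day 4 and 0.86 at day 6, and 770 of them (42.4%) were still at least 2-fold above controls at day 6. Of the 1920 genes (4.3%) called lower in the cold at day 4, 43 were also called lower at day 6, which is 2.24% of the day 4 list and 58.1% of the 74 genes (0.166%) called lower at day 6. Their median difference was -1.88 at day 4 and -0.83 at day 6, with 774 (40.3%) still at least 2-fold below controls. These genes were picked on their day 4 values, so part of a smaller value on another day follows from that choice. The libraries disagreed on the remainder. With cold day 6 replicate 2 alone 58.3% of the higher and 55.3% of the lower genes were still 2-fold away from controls, and with replicate 3 alone 26.4% of each.

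The genes with a calcium role made up 3 of the 10 genes that fell. ACA12 (TRINITY_DN15816_c0_g2) is closest to a plasma membrane calcium pump of Arabidopsis that removes calcium from the cytosol. It had 23.4 and 18.5 TPM in cold day 6 calli, against 201 and 252 TPM in cold day 4 calli. Both cold day 6 values lay below the cold day 4 values and also below the control day 6 values of 78.9 and 40.7 TPM, while control day 4 calli had 14.6 and 30.6 TPM. ACA12 fell by 3.38 on the log2 scale in the cold (SE 0.418, n = 2 each; limma BH-adjusted p = 0.0374) and its control change was 1.38. A second gene with this best hit (TRINITY_DN23380_c0_g2) had 53.9 and 35.6 TPM at cold day 6, against 255 and 263 TPM at cold day 4, and missed the threshold (limma BH-adjusted p = 0.0734). All 4 assembled ACA12 genes were separated 2-fold lower at cold day 6, and their summed level was 86.4 and 55.7 TPM there, against 500 and 527 TPM at cold day 4.

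ACA13 (TRINITY_DN32728_c0_g6), a second putative pump of this type, had 23.3 and 8.48 TPM at cold day 6, against 144 and 157 TPM at cold day 4. Control calli had 32.4 and 27.8 TPM at day 6, against 9.87 and 17.1 TPM at day 4. The cold values lay below the control values of day 6, a difference that missed the threshold (limma BH-adjusted p = 0.263). Over all 6 assembled ACA13 genes, 3 of them separated 2-fold lower, the sums were 133 and 45.4 TPM at cold day 6, against 204 and 274 TPM at cold day 4. The cold day 6 sums overlapped the 122 and 87.4 TPM of control day 6 calli. This ACA13 gene fell by 3.31 on the log2 scale in the cold (SE 0.446, n = 2 each; limma BH-adjusted p = 0.0471). CML28 (TRINITY_DN19409_c0_g1), a calmodulin-like calcium-binding protein, had 21.1 and 16.9 TPM at cold day 6, against 110 and 166 TPM at cold day 4. Control calli had 30.4 and 16 TPM of CML28 at day 6, against 8.37 and 8.04 TPM at day 4, and the cold and control ranges overlapped at day 6. CML28 fell by 2.77 on the log2 scale in the cold (SE 0.333, n = 2 each; limma BH-adjusted p = 0.0374).

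The wider calcium list did not move as a block. Of 169 tested calcium sensors, channels, pumps and kinases, 3 fell by limma and 0 rose, beside the 0.0224% and 0.0112% of all genes. A further count had 25 separated 2-fold lower at cold day 6 and 3 higher, against 8.14% and 5.97% of all genes. Replicate 2 alone gave 27 lower and 5 higher, and replicate 3 alone 29 lower and 8 higher. The median change was -0.12 in the cold and -0.030 in controls, and in controls 2 genes were separated 2-fold lower at day 6 and 6 higher. CML3, another calmodulin-like gene, had 23.8 and 55 TPM at cold day 6, against 145 and 190 TPM at cold day 4 (limma BH-adjusted p = 0.0884). CIPK1, a kinase that works with calcium-binding CBL proteins, had 45.3 and 38.4 TPM at cold day 6, against 158 and 105 TPM at cold day 4 (limma BH-adjusted p = 0.12). The most abundant calmodulin of the list (TRINITY_DN32567_c2_g2) had 5496 and 5239 TPM at cold day 6, against 5917 and 4780 TPM at cold day 4, with overlapping groups.

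EXL2 and CBSX5 were the other genes with a Swiss-Prot name that passed the test, and neither returned to the control level. EXL2 (TRINITY_DN20079_c0_g1) is related to EXORDIUM, a secreted wall protein of Arabidopsis tied to brassinosteroid-dependent growth. It had 214 and 288 TPM at cold day 6, against 34.8 and 49.7 TPM at cold day 4, and had stood at 250 and 226 TPM at cold day 2. Control calli had 23.4 and 30 TPM at day 6, against 38.1 and 45.7 TPM at day 4. EXL2 was thus high on both outer days of the cold and at the control level on day 4. It rose by 2.55 on the log2 scale from day 4 to day 6 (SE 0.316, n = 2 each; limma BH-adjusted p = 0.0374), and its excess over controls was 3.18 at day 6 (limma BH-adjusted p = 0.00304) and -0.01 at day 4.

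CBSX5 (TRINITY_DN26003_c0_g2) carries CBS domains, small folds that bind adenine nucleotides in other proteins. It had 118 and 116 TPM at cold day 2, 51.8 and 45.1 TPM at cold day 4, and 12 and 13.7 TPM at cold day 6. Control calli had 53.2 and 41.1 TPM at day 6, against 28.8 and 32.9 TPM at day 4. CBSX5 fell by 1.84 on the log2 scale from day 4 to day 6 in the cold (SE 0.253, n = 2 each; limma BH-adjusted p = 0.0471). At day 6 it lay below controls (log2 difference -1.79, limma BH-adjusted p = 0.0201), after lying above them at day 2.

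**Figure D3:**
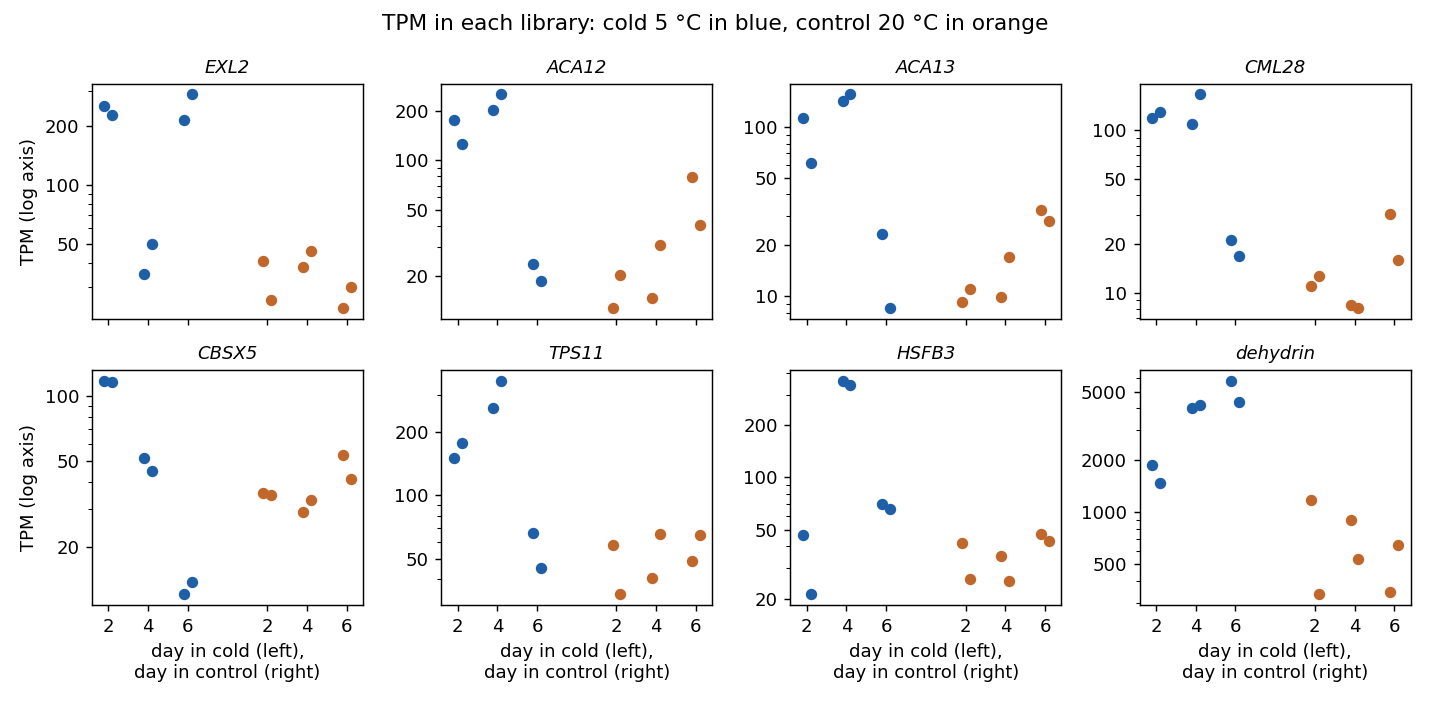
TPM on a log axis (y) in each library by day (x), cold in blue at left and control in orange at right of each panel, for EXL2, ACA12, ACA13, CML28, CBSX5, TPS11, HSFB3 and the most abundant dehydrin. EXL2 is high on cold days 2 and 6, ACA12, ACA13, CML28 and TPS11 stay high through cold day 4 and are lower at day 6, HSFB3 peaks at cold day 4 (362 and 342 TPM for its most abundant assembled gene), and the dehydrin reaches 5804 and 4382 TPM at cold day 6.

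The remaining 10 called genes had no Swiss-Prot name. TRINITY_DN17658_c0_g2, whose closest database protein is annotated as DNA replication complex GINS protein SLD5, a part of the helicase that opens DNA for copying, had 7.09 and 2.79 TPM at cold day 6, against 38.4 and 62.4 TPM at cold day 4. It fell by 3.17 on the log2 scale (SE 0.406, n = 2 each; limma BH-adjusted p = 0.0431), while controls held 9.9 and 7.91 TPM at day 6, against 7.78 and 6.46 TPM at day 4. TRINITY_DN28955_c0_g2, annotated as resembling a cell wall integrity and stress response component, had 11.1 and 16.3 TPM at cold day 6, against 1.43 and 0.94 TPM at cold day 4. It rose by 2.73 on the log2 scale (SE 0.314, n = 2 each; limma BH-adjusted p = 0.0374), and both control days lay between 17.6 and 26.2 TPM. Both genes ended below the control values of day 6, the SLD5-annotated gene by 0.83 on the log2 scale (limma BH-adjusted p = 0.317).

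A further 2 called genes were listed at 0 in both cold day 4 libraries. TRINITY_DN33703_c3_g1 had 10.9 and 19.6 TPM at cold day 6 and TRINITY_DN19224_c2_g1 had 7.95 and 20.7 TPM, and neither carries an annotation. The gene with the lowest adjusted p, TRINITY_DN18355_c1_g1, is also unannotated. It had 5.13 and 6.47 TPM at cold day 6, against 54.5 and 69.6 TPM at cold day 4, and fell by 3.21 on the log2 scale (SE 0.307, n = 2 each; limma BH-adjusted p = 0.0165). At day 6 it stood below the controls, which had 23.5 and 17.5 TPM. TRINITY_DN27356_c0_g2 was high on cold day 4 alone, with 1.5 and 0.46 TPM at cold day 6, against 24.6 and 36.8 TPM at cold day 4, and under 1 TPM in the other 8 libraries. TRINITY_DN23870_c0_g5, TRINITY_DN29986_c0_g3 and TRINITY_DN35783_c5_g2 fell by 2.15, 2.15 and 2.79 on the log2 scale, and TRINITY_DN19860_c0_g3 rose by 3.50, each at a limma BH-adjusted p of 0.0471. The last gene inside the threshold had a limma BH-adjusted p of 0.0471 and the first outside, IMK3, had 0.0694.

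Several lists of stress transcription factors held more genes lower at cold day 6 than higher. No member of the cold regulator, WRKY, NAC, MYB or heat stress factor lists passed limma in this comparison, so the counts that follow use the 2-fold separation, whose background was 5.97% of all genes higher and 8.14% lower. At an unadjusted p under 0.05, limma had 14 cold regulators lower and 0 higher, 23 WRKY genes lower and 1 higher, and 15 NAC genes lower and 1 higher. It had 17 MYB genes lower and 8 higher, and 9 heat stress factors lower and 0 higher. Over all genes 6.31% were lower and 5.43% higher at that p. Members named from these and later lists were chosen after their values were seen, and are not given as typical of a list. Of 58 tested cold transcription factors (DREB, ZAT, CAMTA, ICE and related genes), 14 were separated 2-fold lower at cold day 6 and 0 higher, with 1 lower and 1 higher in controls. With replicate 2 alone 8 were lower and 0 higher, and with replicate 3 alone 14 were lower and 3 higher. The list summed to 984.6 to 1327 TPM at cold day 6, against 1689 to 1859 TPM at cold day 4, although its median change was only -0.097. Of the 14, 11 were in the returning class, which held 59.9% of all genes separated 2-fold in the cold.

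DREB2C, whose Arabidopsis namesake binds the dehydration-responsive element, had 5.52 and 1.54 TPM at cold day 6, against 21.8 and 32.8 TPM at cold day 4, where control day 6 calli had 4.7 and 3.2 TPM (limma BH-adjusted p = 0.0884). Its cold day 6 range therefore spanned that of the controls. The zinc finger repressor ZAT10 (TRINITY_DN19422_c0_g4) had 44.4 and 24.7 TPM at cold day 6, against 275 and 199 TPM at cold day 4, with 14 and 16.3 TPM in control day 6 calli (limma BH-adjusted p = 0.0884). Both cold day 6 libraries were below cold day 4 and still above controls. ZAT6, the most abundant of the list, had 166 and 31.7 TPM at cold day 6, against 244 and 268 TPM at cold day 4, with the cold day 6 libraries far apart (limma BH-adjusted p = 0.284).

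Of 23 heat stress transcription factors, 8 were separated 2-fold lower at cold day 6 and 0 higher, with 1 lower and 0 higher in controls. Their median change was -0.60 in the cold and 0.11 in controls, and replicate 2 alone gave 8 lower and 2 higher, against 9 lower and 0 higher with replicate 3 alone. The 4 assembled genes of HSFB3, a class B factor, summed to 97.7 and 55.3 TPM at cold day 2, 590 and 589 TPM at cold day 4, and 134 and 118 TPM at cold day 6, and to 100 and 89.8 TPM in control day 6 calli. They were near the control level on both outer days and high on day 4. The most abundant of them (TRINITY_DN21463_c1_g2) had 70.5 and 65.9 TPM at cold day 6, against 362 and 342 TPM at cold day 4 (log2 difference -2.35, SE 0.372, n = 2 each; limma BH-adjusted p = 0.0821). HSFA3, an activator that acts below DREB2 factors in Arabidopsis, had 12.9 and 5.15 TPM at cold day 6, against 36 and 42.6 TPM at cold day 4 (limma BH-adjusted p = 0.105).

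Of 79 WRKY factors, regulators of defence and stress genes, 23 were separated 2-fold lower at cold day 6 and 0 higher, with 0 lower and 1 higher in controls. The median change was -0.51 in the cold and 0.063 in controls. Of the 23, 21 were returning, beside 59.9% of all genes separated 2-fold in the cold. Replicate 2 alone gave 17 lower and 0 higher, and replicate 3 alone gave 29 lower and 5 higher. The 4 assembled WRKY24 genes summed to 167 and 89.5 TPM at cold day 6, against 541 and 534 TPM at cold day 4, where controls held 147 and 98 TPM at day 6 and 86.8 and 121 TPM at day 4. The cold day 6 and control ranges overlapped. WRKY40 had 21.5 and 4.46 TPM at cold day 6, against 54.5 and 63.5 TPM at cold day 4 (limma BH-adjusted p = 0.155).

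Of 57 NAC factors, 15 were separated 2-fold lower at cold day 6 and 5 higher, with 2 lower and 2 higher in controls. Across them the median change was -0.48 in the cold and 0.056 in controls. The cold libraries had 13 lower and 4 higher (replicate 2) and 19 lower and 7 higher (replicate 3). NAC072, a factor of drought and abscisic acid responses, had 329 and 75.8 TPM at cold day 6, against 633 and 719 TPM at cold day 4, with 51.1 and 56.3 TPM in control day 6 calli (limma BH-adjusted p = 0.18). Replicate 2 stayed well above controls for this gene and replicate 3 was close to them. NAC083 had 192 and 114 TPM at cold day 6, against 475 and 462 TPM at cold day 4, above the 55 and 95 TPM of control day 6 calli. Of 91 MYB factors, 19 were separated 2-fold lower at cold day 6 and 8 higher, with 3 each in controls. Replicate 2 alone gave 15 lower and 8 higher, and replicate 3 alone 25 lower and 11 higher. MYB4, a repressor of phenylpropanoid genes in Arabidopsis, had 47.8 and 38.6 TPM at cold day 6, against 185 and 223 TPM at cold day 4 (limma BH-adjusted p = 0.0885).

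**Figure D4:**
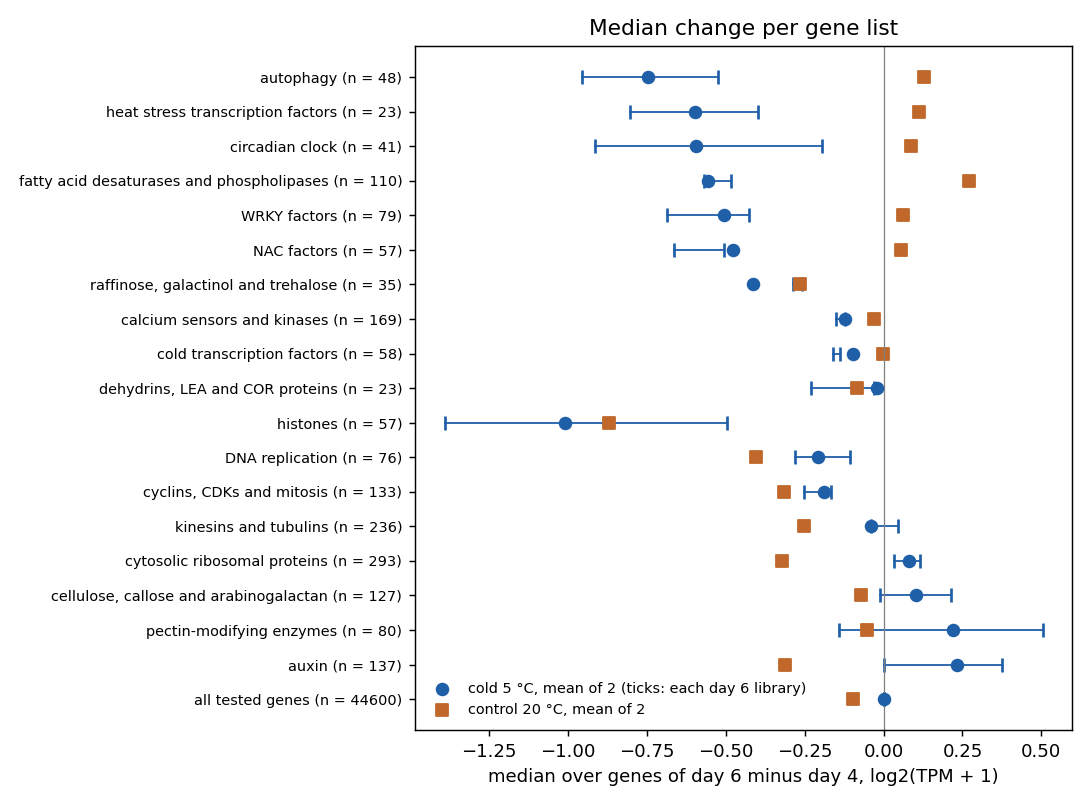
Median over the genes of each list of the day 6 minus day 4 change in log2(TPM + 1) (x axis), for 18 lists and all tested genes (rows, with the number of genes). Blue circles are the cold mean of 2 with ticks for each cold day 6 library and orange squares are controls; autophagy, heat stress factors, clock, WRKY and NAC lists lie to the left of 0 in the cold and not in controls, histones lie to the left in both, and the wall and auxin lists have a tick near or below 0 for 1 of the cold day 6 libraries.

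The clock and autophagy lists held more genes lower at cold day 6 than higher, and 0 of them passed limma. At an unadjusted p under 0.05 there were 12 clock genes lower and 1 higher, and 23 autophagy genes lower and 0 higher. The shares over all genes at that p were 6.31% lower and 5.43% higher. Of 41 circadian clock genes, 10 (24.4%) were separated 2-fold lower at cold day 6 and 1 (2.44%) higher, with 0 in either direction in controls. Over all genes 8.14% were lower and 5.97% higher. The median change of the clock list was -0.59 in the cold and 0.088 in controls. Replicate 2 alone gave 5 lower and 0 higher, and replicate 3 alone gave 17 lower and 2 higher. ADO3, a light-sensing F-box protein of the clock, had 21.5 and 10.3 TPM at cold day 6, against 65.7 and 66.7 TPM at cold day 4 (limma BH-adjusted p = 0.0884), and 9.31 and 13.2 TPM in control day 6 calli. The repressor APRR5 had 7.22 and 7.82 TPM at cold day 6, against 22.1 and 23.5 TPM at cold day 4 (limma BH-adjusted p = 0.184), whereas the related APRR7 had 9.95 and 14.3 TPM at cold day 6, against 5.25 and 4.32 TPM at cold day 4 (limma BH-adjusted p = 0.319). The GO term circadian rhythm, a separate grouping of 87 genes, stood near the background, with 9 lower (10.3%) and 4 higher and a median of -0.19 in the cold and -0.022 in controls.

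Autophagy, the recycling of cell content in the vacuole, had the lowest median of the protein turnover lists. Of 48 tested autophagy genes, 16 (33.3%, against 8.14% of all genes) were separated 2-fold lower at cold day 6 and 0 higher. In controls 1 was lower and 0 were higher. Of the 16 lower in the cold, 15 were returning, beside 59.9% of all genes separated 2-fold in the cold. The median change was -0.75 in the cold and 0.13 in controls, and replicate 2 alone gave 11 lower and replicate 3 alone 23. The smaller GO term autophagy did not show this. Of its 24 genes, 1 was separated 2-fold lower and 2 higher, with a median of -0.11 in the cold and 0.081 in controls. The 48-gene list summed to 1301 to 1568 TPM at cold day 6, against 2477 to 2543 TPM at cold day 4. ATG9 (TRINITY_DN35893_c3_g1), a membrane protein that feeds the growing autophagosome, had 26.8 and 16.4 TPM at cold day 6, against 62.4 and 81.7 TPM at cold day 4 (limma BH-adjusted p = 0.105). ATG13A, a subunit of the kinase complex that starts autophagy, had 21 and 14.6 TPM at cold day 6, against 48.3 and 41.5 TPM at cold day 4 (limma BH-adjusted p = 0.131). ATG8C, a ubiquitin-like tag of autophagosome membranes, had 29.8 and 22.6 TPM at cold day 6, against 71.2 and 67.2 TPM at cold day 4 (limma BH-adjusted p = 0.184). Of 103 proteasome genes, by comparison, 3 were separated 2-fold higher at cold day 6 and 0 lower, with a median of 0.12 in the cold and -0.11 in controls.

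Protective products did not follow the regulators as 1 group. Of 23 dehydrins, LEA and COR proteins, 5 (21.7%) were separated 2-fold lower at cold day 6 and 2 (8.7%) higher. Over all genes the shares were 8.14% and 5.97%. Replicate 2 alone gave 2 lower and 4 higher, and replicate 3 alone 8 lower and 0 higher. The summed level was 7626 to 9724 TPM at cold day 6 and 7653 to 7823 TPM at cold day 4. The most abundant dehydrin (TRINITY_DN23807_c0_g1), of a family that shields proteins and membranes from drying and freezing, had 5804 and 4382 TPM at cold day 6, against 4007 and 4192 TPM at cold day 4 (log2 difference 0.30, SE 0.633, n = 2 each; limma BH-adjusted p = 0.926), a difference that was -0.048 under quantile normalization. Control calli had 344 and 650 TPM of it at day 6, so its excess over controls was still 3.41 on the log2 scale (limma BH-adjusted p = 0.048). LTI65, a low-temperature protein, had 9.15 and 3.07 TPM at cold day 6, against 21.9 and 15.5 TPM at cold day 4 (limma BH-adjusted p = 0.23). COR413PM2, a cold-regulated plasma membrane protein, had 243 and 166 TPM at cold day 6, against 84.9 and 108 TPM at cold day 4 (limma BH-adjusted p = 0.313). Neither difference passed the test.

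Sugar genes for raffinose and trehalose were lower at day 6 in sum. Of 35 tested genes, 8 (22.9%) were separated 2-fold lower at cold day 6 and 3 (8.57%) higher, against 8.14% and 5.97% of all genes. All 11 were returning, beside 59.9% of all genes separated 2-fold in the cold, and controls had 3 lower and 0 higher. By library the counts were 10 lower and 2 higher for replicate 2 and 8 lower and 6 higher for replicate 3. The list summed to 1012 to 1118 TPM at cold day 6, against 1920 to 2247 TPM at cold day 4. TPS11 (TRINITY_DN32346_c0_g1), a class II trehalose-phosphate synthase, had 66.2 and 45.2 TPM at cold day 6, against 262 and 352 TPM at cold day 4. Control calli had 48.6 and 65.1 TPM at day 6, against 40.6 and 65.8 TPM at day 4, so the cold day 6 values lay at the control level. The log2 difference of TPS11 in the cold was -2.45 (SE 0.364, n = 2 each; limma BH-adjusted p = 0.0694). GOLS2, galactinol synthase, which makes the galactose donor for raffinose, had 11.9 and 7.34 TPM at cold day 6, against 33.3 and 63.6 TPM at cold day 4 (limma BH-adjusted p = 0.221). RFS2, a raffinose synthase, differed in the other direction, with 12.3 and 34 TPM at cold day 6, against 4.14 and 5.17 TPM at cold day 4 (limma BH-adjusted p = 0.227).

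Fatty acid desaturase genes had opposite medians in the 2 arms. Of 110 tested desaturases and phospholipases, 37 (33.6%) were separated 2-fold lower at cold day 6 and 1 (0.909%) higher. Over all genes 8.14% were lower and 5.97% higher in the cold. In controls 3 of the 110 were lower and 20 higher. Their median change was -0.56 in the cold and 0.27 in controls, and replicate 2 and replicate 3 alone gave 36 and 43 lower. FAD2, the enzyme that adds the second double bond to oleic acid in the endoplasmic reticulum, accounts for 25 of these assembled genes, 20 of them separated 2-fold lower at cold day 6. Summed, FAD2 had 1739 and 1454 TPM at cold day 6, against 3537 and 3881 TPM at cold day 4. Control calli had 6791 and 3130 TPM at day 6, against 2670 and 3700 TPM at day 4, and 1 control library carried the upper end. Of the 20 separated FAD2 genes, 5 were returning and 3 went further, beside 59.9% and 7.39% of all genes separated 2-fold in the cold. Some of the 25 are annotated as acetylenases, relatives of FAD2 that make triple bonds, so the sum is not that of 1 enzyme. A FAD2 gene with a lower level (TRINITY_DN27778_c0_g2) had 86.3 and 49.6 TPM at cold day 6, against 162 and 265 TPM at cold day 4 (limma BH-adjusted p = 0.175), and 187 and 160 TPM in control day 6 calli.

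No gene of the hormone lists passed limma. At an unadjusted p under 0.05 there were 21 abscisic acid genes lower and 16 higher, and 5 gibberellin genes lower and 0 higher. Auxin genes had 2 lower and 10 higher, and all tested genes had 6.31% lower and 5.43% higher. By the 2-fold separation, 8.14% of all genes were lower at cold day 6 and 5.97% higher. Of 151 abscisic acid genes, 20 (13.2%) were lower and 10 (6.62%) higher, with 3 lower and 0 higher in controls. By library the counts were 17 lower and 12 higher for replicate 2 and 29 lower and 17 higher for replicate 3. PP2CA, a phosphatase that restrains abscisic acid signalling, had 8.76 and 3.61 TPM at cold day 6, against 36.5 and 40.5 TPM at cold day 4 (limma BH-adjusted p = 0.129). Of 27 gibberellin genes, 5 (18.5%) were lower and 0 higher. Replicate 2 alone gave 3 lower and 1 higher, and replicate 3 alone 9 lower and 1 higher. The receptor GID1B (TRINITY_DN32989_c0_g2) had 36.5 and 9.74 TPM at cold day 6, against 97.4 and 127 TPM at cold day 4 (limma BH-adjusted p = 0.119). Of 131 ethylene genes, 16 (12.2%) were lower and 10 (7.63%) higher, and of 38 jasmonate genes 6 (15.8%) were lower and 6 (15.8%) higher. Of 31 cytokinin genes, 2 (6.45%) were lower and 3 (9.68%) higher.

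Of 137 auxin genes, 18 (13.1%) were separated 2-fold higher at cold day 6 and 4 (2.92%) lower, against 5.97% and 8.14% of all genes. In controls 1 of the 137 was higher and 18 were lower. Across the list the median change was 0.23 in the cold and -0.31 in controls, and by library 0.00031 for cold day 6 replicate 2 and 0.38 for replicate 3. With replicate 2 alone 14 were higher and 3 lower, and with replicate 3 alone 37 were higher and 8 lower. The GO term response to auxin (180 genes) had 15 higher and 13 lower in the cold and 2 higher and 16 lower in controls, with medians of 0.13 and -0.14. ARF25, a DNA-binding auxin response factor, had 11.8 and 18.3 TPM at cold day 6, against 3.89 and 3.38 TPM at cold day 4 (limma BH-adjusted p = 0.119). A gene closest to the auxin-induced protein PCNT115 had 410 and 772 TPM at cold day 6, against 184 and 139 TPM at cold day 4 (limma BH-adjusted p = 0.141). SAUR36, an early auxin gene, had 1.73 and 0.99 TPM at cold day 6, against 8.78 and 13.2 TPM at cold day 4 (limma BH-adjusted p = 0.109), and lay below the 15.9 and 15.8 TPM of control day 6 calli.

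The cold day 6 libraries disagreed on cell wall synthesis genes. Of 127 cellulose, callose and arabinogalactan genes, 0 passed limma, with 15 higher and 4 lower at an unadjusted p under 0.05. At that p 5.43% of all genes were higher and 6.31% lower. Of these 127, 11 were separated 2-fold higher (8.66%, against 5.97% of all genes) and 4 lower, with 0 higher and 6 lower in controls, and replicate 2 alone gave 5 higher and 8 lower against 27 higher and 7 lower with replicate 3 alone. The 24 cellulose synthase catalytic genes summed to 638 and 1001 TPM at cold day 6, against 357 and 450 TPM at cold day 4. Controls held 672 and 885 TPM at day 6 and 635 and 938 TPM at day 4, so the cold day 6 sums were in or near the control range. CESA1 (TRINITY_DN33572_c0_g1), a subunit of the primary wall complex, had 79 and 134 TPM at cold day 6, against 37.1 and 46.5 TPM at cold day 4 (limma BH-adjusted p = 0.204). CESA2 had 15 and 43.7 TPM at cold day 6, against 8.06 and 7.74 TPM at cold day 4 (limma BH-adjusted p = 0.155), with 64.9 and 63.2 TPM in control day 6 calli. COB, an anchored protein of oriented cellulose deposition, had 38.5 and 31.1 TPM at cold day 6, against 11.2 and 16 TPM at cold day 4 (limma BH-adjusted p = 0.15). Of the 15 xylem markers, 4 were separated 2-fold higher and 1 lower at cold day 6, and no marker was at 0 in all 4 libraries. The 15 summed to 150.5 to 209.3 TPM at cold day 6 and 231 to 312 TPM at cold day 4. Much of the day 4 sum was the 1 lower gene, XCP2 (TRINITY_DN27664_c1_g1). It had 42.9 and 78.7 TPM at cold day 6, against 131 and 241 TPM at cold day 4. The part of the xylem markers in the wall result was not tested.

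Pectin and expansin lists had no common direction. Of 80 pectin genes, 11 (13.8%) were separated 2-fold higher at cold day 6 and 10 (12.5%) lower, against 5.97% and 8.14% of all genes. Replicate 2 alone gave 5 higher and 13 lower, against 21 higher and 11 lower with replicate 3 alone. Of 68 expansins and xyloglucan enzymes, 8 (11.8%) were higher and 6 (8.82%) lower. There were 5 higher and 8 lower for replicate 2 alone and 19 higher and 6 lower for replicate 3 alone. EXLA2 (TRINITY_DN23039_c2_g1), an expansin-like wall protein, had 126 and 216 TPM at cold day 6, against 54 and 60.4 TPM at cold day 4 (limma BH-adjusted p = 0.119). The 5 assembled genes for MAP70, a plant microtubule-associated protein, summed to 141 and 238 TPM at cold day 6, against 85.9 and 82.2 TPM at cold day 4, with 168 and 253 TPM in control day 6 calli. Both MAP70 cold day 6 sums exceeded both cold day 4 sums. The 37 coatomer genes, subunits of the COPI coat that returns vesicles to the endoplasmic reticulum, summed to 1535 and 1927 TPM at cold day 6, against 1176 and 1094 TPM at cold day 4, and to 1700 and 1965 TPM in control day 6 calli. Of these 37, 3 were separated 2-fold higher and 0 lower.

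The histone list had a negative median from day 4 to day 6 at both temperatures, and 0 of its genes passed limma in the cold. At an unadjusted p under 0.05 there were 32 lower and 3 higher, beside 6.31% and 5.43% of all genes. Of 57 histone genes, 28 (49.1%) were separated 2-fold lower at cold day 6 and 2 (3.51%) higher, against 8.14% and 5.97% of all genes. In controls 20 histone genes were lower and 0 higher. Their median change was -1.01 in the cold and -0.87 in controls. The cold libraries disagreed in size, with medians of -0.50 for replicate 2 and -1.39 for replicate 3. Replicate 2 alone gave 9 lower and 1 higher, and replicate 3 alone 36 lower and 4 higher. Histone H4 genes summed to 629 and 234 TPM at cold day 6, against 834 and 972 TPM at cold day 4, and to 332 and 433 TPM in control day 6 calli, against 943 and 619 TPM in control day 4 calli. One linker histone H1 gene (TRINITY_DN17781_c0_g1) had 49.4 and 18.8 TPM at cold day 6, against 151 and 187 TPM at cold day 4 (limma BH-adjusted p = 0.0884).

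Replication and division genes showed small median changes in both arms. The shares of all genes separated 2-fold in the cold, for comparison, were 8.14% lower and 5.97% higher. Of 76 DNA replication genes, 1 fell by limma (the SLD5-annotated gene), 3 were separated 2-fold lower at cold day 6 and 0 higher, and the median was -0.21 in the cold and -0.40 in controls. In replicate 2 alone 2 were lower, and in replicate 3 alone 10. Of 133 cyclin, CDK and mitosis genes, 16 were separated 2-fold lower and 3 higher. Of those 19, 7 were returning and 7 going further, beside 59.9% and 7.39% of all genes separated 2-fold in the cold. The median of the 133 was -0.19 in the cold and -0.31 in controls. By library 17 were lower and 3 higher (replicate 2), and 19 lower and 6 higher (replicate 3). Of 236 kinesin and tubulin genes, 9 were higher and 5 lower, and the direction differed between the libraries. Replicate 2 alone gave 8 higher and 21 lower, and replicate 3 alone 23 higher and 8 lower. Over all 44600 tested genes replicate 2 alone gave 2906 higher and 3726 lower, and replicate 3 alone 5103 higher and 5477 lower. Of 293 cytosolic ribosomal protein genes, 4 were higher and 2 lower, with a median of 0.080 in the cold and -0.32 in controls.

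Genes that moved away from the controls in the last days were fewer, and 0 of them passed limma for day 6 against day 4. By limma, 246 of the 465 had an unadjusted p under 0.05, beside 2646 of the 3772 returning genes. Both classes were already separated 2-fold in the same libraries, so many low p-values follow from that choice. At cold day 6 the excess or deficit against controls was itself called for several genes going further. Genes of this class, here and in the next paragraph, were picked for a larger difference at day 6. The size of that difference and its calls therefore follow in part from the choice. A gene closest to hpxO (TRINITY_DN16771_c0_g1), a bacterial FAD-dependent urate hydroxylase, had 32.7 and 34.6 TPM at cold day 6, against 2.69 and 1.86 TPM at cold day 4 (log2 difference 3.42, SE 0.527, n = 2 each; limma BH-adjusted p = 0.0734). Control calli had 4.34 and 0.91 TPM at day 6, and the excess of the cold calli at day 6 was 3.44 on the log2 scale (limma BH-adjusted p = 0.0253). At1g73050, a mandelonitrile lyase-like protein, had 101 and 35.9 TPM at cold day 6, against 2.82 and 7.04 TPM at cold day 4, and stayed under 1 TPM in the control libraries of both days. Its excess at day 6 was 5.62 on the log2 scale (limma BH-adjusted p = 0.005), compared with 1.84 at day 4. At1g04430, a putative methyltransferase of the PMT family, had 159 and 158 TPM at cold day 6, against 61.5 and 64.7 TPM at cold day 4, and 44.4 and 70.5 TPM in control day 6 calli.

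Among the genes going further, some act in dividing cells and are named after their values were seen, and none passed limma for the change itself. They do not stand for the division lists, whose medians lay closer to controls at day 6. The median change of each list was negative in the cold and more so in controls, as for kinesins and tubulins (-0.0395 and -0.252). Over all tested genes the median cold minus control difference was -0.0266 at day 6 and -0.156 at day 4. The median cold minus control difference was -0.60 at day 6 and -0.86 at day 4 for DNA replication, -0.097 and -0.36 for cyclins and mitosis, and -0.34 and -0.60 for kinesins and tubulins. MAD2, the spindle checkpoint protein, had 6.84 and 5.03 TPM at cold day 6, against 14.6 and 28.8 TPM at cold day 4, and 30.3 and 30.3 TPM in control day 6 calli. Its difference from controls was -2.19 at day 6 (limma BH-adjusted p = 0.0251), compared with -1.17 at day 4. KIN10A, a kinesin motor of dividing cells, had 10 and 9.13 TPM at cold day 6, against 21.8 and 27.2 TPM at cold day 4, with a difference from controls of -1.45 at day 6 (limma BH-adjusted p = 0.0459). IMK3, a receptor-like kinase, had 2.55 and 2.31 TPM at cold day 6, against 10.3 and 17 TPM at cold day 4. Controls had 11 and 11.2 TPM of IMK3 at day 6, against 25.7 and 25.5 TPM at day 4, so IMK3 was lower at day 6 in both arms. MCM6, a subunit of the replicative helicase, had 12.5 and 9.39 TPM at cold day 6, against 27.4 and 24.4 TPM at cold day 4, and controls had 27.7 and 23.9 TPM at day 6, against 60 and 42.7 TPM at day 4. SOG1, a DNA damage regulator, had 6.05 and 3.25 TPM at cold day 6, against 14.4 and 25 TPM at cold day 4, and 22.7 and 23.3 TPM in control day 6 calli.

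**Figure D5:**
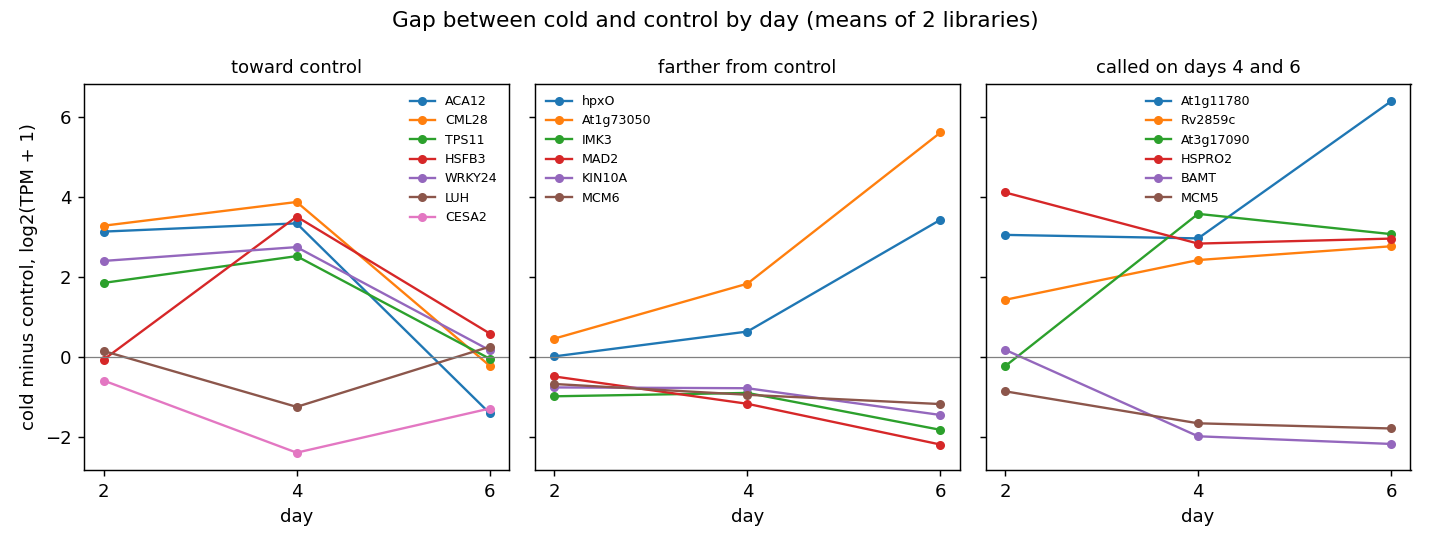
Cold minus control difference in mean log2(TPM + 1) (y axis) on days 2, 4 and 6 (x axis) for genes that moved toward the controls, that moved farther from them, and that were called on both days 4 and 6; lines join the values of 1 gene. ACA12 stands at 3.35 on day 4 and -1.41 on day 6, At1g73050 at 1.84 and 5.62, and At1g11780 at 2.97 and 6.41.

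Some differences from controls were of similar or larger size at day 6. At1g11780, annotated as an AlkB-type dioxygenase, had 1148 and 520 TPM at cold day 6, against 369 and 551 TPM at cold day 4, and 4.75 and 13.5 TPM in control day 6 calli, against 28.6 and 111 TPM in control day 4 calli. The cold groups overlapped, and its excess over controls was 6.41 at day 6 (limma BH-adjusted p = 0.00304) and 2.97 at day 4 (limma BH-adjusted p = 0.0206), the day 6 value being larger with lower controls. At3g17090, a protein phosphatase 2C, had 166 and 93.7 TPM at cold day 6, against 285 and 228 TPM at cold day 4, and 14.3 and 13.5 TPM in control day 6 calli. Its excess was 3.08 at day 6 (limma BH-adjusted p = 0.0031) and 3.59 at day 4 (limma BH-adjusted p = 0.00125). HSPRO2, a protein of basal resistance in Arabidopsis, had 84.5 and 69.5 TPM at cold day 6, against 169 and 140 TPM at cold day 4, and 12.7 and 6.18 TPM in control day 6 calli. Its excess was 2.97 at day 6 (limma BH-adjusted p = 0.0262) and 2.84 at day 4 (limma BH-adjusted p = 0.00998).

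On the lower side, BAMT, closest to a benzoate methyltransferase, had 36.8 and 57.5 TPM at cold day 6, against 59.2 and 54.1 TPM at cold day 4, and 192 and 231 TPM in control day 6 calli. Its difference from controls was -2.17 at day 6 (limma BH-adjusted p = 0.0218). MCM5, another helicase subunit, had 30.9 and 29.2 TPM at cold day 6, against 43.7 and 39.4 TPM at cold day 4, and 128 and 87.3 TPM in control day 6 calli, a difference of -1.78 (limma BH-adjusted p = 0.0366). Neither gene differed from day 4 by the test in the cold.

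Over the annotation terms, 966 GO terms and KEGG pathways had 20 to 500 tested members, and the extremes of their median change were taken as a description, picked by their values. The lowest was an oxidoreductase term for enzymes that reduce oxygen to water with paired donors (47 genes, median -1.67 in the cold and 1.18 in controls), of which 24 genes are FAD2. Unsaturated fatty acid biosynthesis followed (60 genes, -1.34 in the cold and 0.97 in controls) and shares the FAD2 genes. The nucleosome term (32 genes) had -1.29 in the cold and -0.90 in controls, nuclear chromatin (27 genes) -0.77 in the cold and -0.62 in controls, and diacylglycerol O-acyltransferase activity (20 genes) -0.67 in the cold and 0.018 in controls. The highest were the COPI vesicle coat (37 genes, 0.56 in the cold and -0.028 in controls), cortical microtubule organization (28 genes, 0.55 in the cold and -0.11 in controls), Golgi to ER retrograde transport (38 genes, 0.49 in the cold and -0.021 in controls), gravitropism (29 genes, 0.49 in the cold and -0.049 in controls) and cellulose synthase activity (44 genes, 0.49 in the cold and -0.051 in controls). The terms that name cold itself had small median changes. Response to cold (250 genes) had a median of -0.13 in the cold and -0.12 in controls. Of its genes, 37 (14.8%, against 8.14% of all genes) were separated 2-fold lower at cold day 6 and 9 (3.6%, against 5.97%) higher. At an unadjusted p under 0.05 this term had 34 genes lower and 9 higher, beside 6.31% and 5.43% of all genes. Cold acclimation (34 genes) had 0.063 in the cold and -0.23 in controls with 2 lower and 1 higher.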

How the data were processed

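RNA-seq of 12 libraries of Panax ginseng embryogenic calli (5 °C or 20 °C, days 2, 4 and 6, 2 libraries per group) was used. The authors deposited TPM per assembled gene with GO, KEGG and Swiss-Prot annotation. The unit was read from the values and the column layout. Cutadapt, FastQC, Salmon and edgeR are named in the submitters' processing notes, without versions or roles. Groups came from the sample titles. Read depth is not known from TPM, so precision rests on the spread between libraries.

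A gene was tested if 2 or more of the 12 libraries reached 1 TPM, which kept 44600 genes and dropped 353. limma 3.58.1 with a variance trend (R 4.3.3) was fitted to log2(TPM + 1) over all 12 libraries as 6 groups. Benjamini-Hochberg adjustment ran over all tested genes at 0.05. Figures were drawn with matplotlib 3.10.9. The scripts were tested on simulated data. Gene lists were word patterns on the annotation, and the ethylene pattern was narrowed after matches to methylene were seen. The seed storage pattern was not narrowed, although it also matched poplar gene names.

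The members and lists were chosen with earlier results of these data known. Named genes were, among genes with a Swiss-Prot name, at least 10 TPM in the higher day and no overlap, the 10 largest called rises and falls, filled by lowest p where fewer passed, with the 5 largest of each class, and the most abundant member of each list. All called genes, list members, genes called on both days and terms were added after values were seen. Alternatives covered pseudocount, filter, scaling, samples in the fit, replicate block, library weights, trend, summing by Swiss-Prot protein and leaving out each library. Replicate numbers did not pair the samples, since days 4 and 6 share only number 2 in each arm. The same-numbered cold pair had deviations from group means that correlated at 0.0569 across genes, within a range of -0.458 to 0.234 over such pairs.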

Additional observations from a re-analysis of the deposited data

Results flagged for a closer look

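For 16 named genes both cold libraries changed one way from day 4 to day 6 and both control libraries the other way. The values that follow are the cold change minus the control change on the log2(TPM + 1) scale. None passed limma for this difference, with Benjamini-Hochberg adjusted p of 0.106 to 0.436, so the difference between the arms is not established for any of them.

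Among genes higher at cold day 6, the difference was 3.185 for EXL2, 2.47 for the hpxO hit TRINITY_DN17113_c2_g1, 4.366 for the unannotated TRINITY_DN33703_c3_g1 and 3.096 for TRINITY_DN28955_c0_g2. The hpxO hit had 141 and 205 TPM at cold day 6, against 42.8 and 38.1 TPM at cold day 4. Control calli had 49.5 and 60.6 TPM of it at day 6, against 68.7 and 79.6 TPM at day 4.

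Among genes lower at cold day 6, the difference was -4.754 for the first ACA12 gene, -3.218 for the second ACA12 gene, -4.457 for ACA13 and -4.1 for CML28. These 4 calcium genes had higher control means at day 6 than at day 4. It was -2.422 for CBSX5 and -3.457 for the SLD5-annotated gene. Among regulators it was -2.924 for the most abundant HSFB3 gene, -3.167 for MYB4, -2.738 for NAC072 and -3.322 for SAUR36. It was -2.655 for the FAD2 gene of lower level and -2.091 for ATG9.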

How the results depend on the processing

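Calls depended on the setting. For cold day 6 against cold day 4, limma called 15 genes, 45 with a pseudocount of 5, 7 with a filter of 5 TPM, 8 with median ratio scaling and 507 with library weights. Swiss-Prot sums gave 19 proteins, 1 higher and 18 lower. It called 0 under quantile normalization, with days 4 and 6 of the cold arm alone, and without the variance trend. In the order pseudocount 5, filter, median ratio scaling and library weights, 38, 5, 6 and 392 of those calls returned toward control. Genes going further numbered 4 with pseudocount 5, 27 with library weights and 1 each with pseudocount 0.1, median ratio scaling and Swiss-Prot sums. Controls had 1 call with pseudocount 5 and 1 with Swiss-Prot sums. The difference between arms had 2 calls with library weights and 6 with Swiss-Prot sums. The median of the genes higher at day 2 was -0.88 with pseudocount 5 and -1.01 with Swiss-Prot sums. With the replicate block, which is not a pairing of samples here, the cold comparison had 0 calls, 0 of them returning, and controls had 1.

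Leaving out each library in turn gave 0 to 135 cold calls, 0 to 3 control calls, 0 to 0 calls for the difference, 0 to 110 returning and 0 to 3 going further. The day 2 medians ranged from -0.85 to -0.44 and from 0.070 to 0.73. The causes of these shifts were not tested.

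The 15 called genes kept their sign in every setting that gave them a value. Of 77 genes followed, 72 kept it. The exceptions were GALS2 (-0.49) and SOG1 (0.15) under Swiss-Prot sums, the most abundant dehydrin under quantile normalization (-0.048), and the most abundant calmodulin under quantile normalization (-0.47) and median ratio scaling (-0.017). Leaving out single libraries moved the calmodulin between -0.14 and 0.17 and BAMT between -0.61 and 0.023. TPM without read counts limits what could be tested.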

Other observations

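The lists that follow include genes for ginsenosides, the saponins for which ginseng is grown, and had 0 limma calls for cold day 6 against day 4. Their members were matched by name or pathway, so not all need act on ginsenosides. At an unadjusted p under 0.05 there were 11 UDP-glycosyltransferases lower and 7 higher, and 2 mevalonate pathway genes lower and 0 higher. All tested genes had 6.31% lower and 5.43% higher at that p. Of 18 oxidosqualene cyclases and ginsenoside hydroxylases, 0 were separated 2-fold in either direction in the cold or in controls, with a median change of 0.061 in the cold and -0.021 in controls. Of 37 mevalonate pathway genes, 1 was separated 2-fold higher at cold day 6 and 3 lower, with a median of 0.18 in the cold and -0.18 in controls. The 119 UDP-glycosyltransferases, which add sugars, were not sorted by product. Of them 18 were lower (15.1%, against 8.14% of all genes) and 7 higher in the cold. In controls 13 were lower and 7 higher. The KEGG pathway of sesquiterpenoid and triterpenoid biosynthesis (38 genes) had 6 lower (15.8%) and 0 higher in the cold, with 2 each in controls. It summed to 488.8 to 674.7 TPM at cold day 6, against 836.3 to 1299 TPM at cold day 4.

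The co-repressor LUH (LEUNIG_HOMOLOG in Arabidopsis) had 22.2 and 30.7 TPM at cold day 6, against 7.95 and 6.61 TPM at cold day 4, and 22.4 and 20.8 TPM in control day 6 calli (limma Benjamini-Hochberg adjusted p = 0.0884 for cold day 6 against day 4). The most abundant glycine-rich RNA-binding protein, of a family of cold-responsive RNA chaperones, had 4929 and 9903 TPM at cold day 6, against 3437 and 2633 TPM at cold day 4 (limma Benjamini-Hochberg adjusted p = 0.527). Of 79 chitinase, glucanase and PR protein genes, 16 (20.3%) were separated 2-fold lower at cold day 6 and 1 (1.27%) higher, with 7 each in controls. Over all genes 8.14% were lower and 5.97% higher in the cold. Of 25 glutathione S-transferases, 3 (12%) were higher and 0 lower, with 0 in either direction in controls. Of 143 heat shock proteins, 6 (4.2%) were higher and 9 (6.29%) lower at cold day 6. Of 107 DnaJ co-chaperones, 1 (0.935%) was higher and 12 (11.2%) lower.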
